A study of Homo sapiens with 4 samples.

Results

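Aldehyde dehydrogenases were followed in HaCaT, an immortalised human keratinocyte line, by RNA sequencing of polyadenylated RNA. Most enzymes of this family oxidise reactive aldehydes to the matching carboxylic acids. The 10 genes described are ALDH1A3, ALDH2, ALDH3A1, ALDH3A2, ALDH3B1, ALDH3B2, ALDH7A1, ALDH9A1, ALDH16A1 and ALDH18A1. They were taken by gene name from tables of 27356 genes, all 10 had a row, and they are 10 of 19 named aldehyde dehydrogenase genes looked for and found there. The set was chosen by gene family with the counts and FPKM of the same M5 against PBS comparison in view, so the differences of these 10 genes are given as a description, without p-values. The control, PBS (phosphate-buffered saline), has 2 libraries. The other 2 are from cells exposed to M5, in which oncostatin M, TNF-α, IL-1α, IL-17 and IL-22 were combined, each of these 5 cytokines at a concentration of 10 μg/L. Both treatments began at a plating density of 50% and lasted 72 h. The treatment tag of the M5 libraries instead names DAC at 25 μM, and the titles and protocols, which name M5, were followed. Nothing in the labels says whether replicates were separate cultures, so every error and p-value reflects only how far these libraries spread, and that spread may be technical.

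Most of these enzymes use NAD or NADP as the electron acceptor, and they differ in substrate and in place within the cell. Some clear aldehydes that arise from lipid peroxidation or from membrane lipids, some make retinoic acid, a regulator of keratinocyte differentiation, and others serve amino acid, choline and carnitine metabolism. In skin the family is best known through ALDH3A2, whose loss causes Sjögren-Larsson syndrome, an inherited disease with ichthyosis.

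The libraries held between 15858644 and 19749612 counts, and all 6 keratinocyte marker genes looked for (KRT5, KRT14, TP63, DSG3, KRT6A and SFN) were tested and present. Melanocyte, fibroblast, leukocyte and endothelial marker lists summed to at most 167 counts in any library, against at least 153678 for the keratinocyte list. The leukocyte list summed to 41 and 62 counts in PBS and 146 and 167 in M5, nearly all of it CD14, with CD3E at 2 counts or fewer and PTPRC, CD68, LYZ and MS4A1 without a row. The endothelial list summed to between 32 and 35 counts in PBS and between 51 and 74 in M5. Within it CDH5 had 15 and 20 counts in PBS and 48 and 74 in M5, VWF had 19 and 11 against 3 and 0, and PECAM1 had 1 count or none. These lists moved in the same comparison as the genes below, and their part in the results was not tested. In bulk RNA, fewer cells of a type and less RNA per cell cannot be told apart.

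Upstream sequence is shown first for ALDH3B1 and ALDH3A2, 2 of the 3 members that were at least 2-fold lower, beside ALDH18A1, which differed little. No sequence is shown for ALDH3A1, the member with the largest difference. RefSeq promoter entries (GRCh38.p14) were matched for 6 members with 8 start sites: ALDH1A3, ALDH3A2, ALDH3B1, ALDH7A1, ALDH9A1 and ALDH18A1. The 250 bases before the start were printed for the 3 entries in which no exon of the gene lies in GENCODE 29. These windows are chr11:68008297-68008546 on the plus strand for ALDH3B1, chr17:19647886-19648135 on the plus strand for the first start of ALDH3A2, and chr10:95656712-95656961 on the minus strand for ALDH18A1. Each is read 5′ to 3′, and capitals mark matches to any of the motifs named next.
ALDH3B1: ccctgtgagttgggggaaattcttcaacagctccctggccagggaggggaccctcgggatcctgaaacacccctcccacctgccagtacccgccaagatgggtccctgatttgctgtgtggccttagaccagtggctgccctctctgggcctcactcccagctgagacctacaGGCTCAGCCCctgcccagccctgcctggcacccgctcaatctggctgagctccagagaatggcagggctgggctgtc
ALDH3A2: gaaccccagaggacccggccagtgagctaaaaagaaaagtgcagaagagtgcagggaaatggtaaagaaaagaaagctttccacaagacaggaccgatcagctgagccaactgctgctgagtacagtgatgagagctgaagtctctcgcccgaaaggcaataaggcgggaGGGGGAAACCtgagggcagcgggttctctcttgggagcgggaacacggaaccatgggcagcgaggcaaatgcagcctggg
ALDH18A1: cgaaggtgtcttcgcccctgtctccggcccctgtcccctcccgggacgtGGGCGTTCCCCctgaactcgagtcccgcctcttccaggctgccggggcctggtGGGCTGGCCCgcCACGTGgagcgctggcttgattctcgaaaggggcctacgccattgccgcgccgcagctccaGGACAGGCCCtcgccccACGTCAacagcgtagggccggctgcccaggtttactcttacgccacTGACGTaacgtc
Both strands were searched for an NF-kB pattern (GGG and CC with any 5 bases between them), a STAT pattern (TTCNNNGAA), the xenobiotic response element core (GCGTG), the antioxidant response element core (TGACNNNGC), the E-box (CACGTG) and the core of a cyclic AMP response element (TGACGT). The NF-kB pattern was in all 8 entries of the members and in 54.4% of the 35116 RefSeq windows of the same length. This pattern fixes only G and C. The share of G and C in the member windows ran from 55.6% (ALDH3A2, first entry) to 82.4% (ALDH1A3). The windows were not matched for base composition, so nothing is read from this comparison. The NF-kB pattern began 77 bases before the start in the printed window of ALDH3B1 and 80 bases before it in that of ALDH3A2. Neither of these windows held another match. The second entries of these 2 genes, not printed, held the NF-kB pattern at 52, 25 and 24 bases (ALDH3B1) and 234, 233 and 72 bases (ALDH3A2). ALDH18A1 held 4 such matches, of which those at 201 and 200 bases overlap, as well as an E-box at 136 bases (6.3% of all windows) and cyclic AMP element cores at 58 and 12 bases (7.1%). Among the entries not printed, the xenobiotic core (32.2% of all windows) was in that of ALDH1A3 and, beside an E-box, in the second entry of ALDH3A2. No member entry held the STAT pattern (6.6%) or the antioxidant core (10.9%). A match is a run of letters and was not tested as a binding site.

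Levels are given as deposited FPKM, counts scaled by gene length and library size. In PBS the levels ran from ALDH1A3 at the top through ALDH18A1, ALDH9A1, ALDH3A2, ALDH3A1, ALDH16A1, ALDH7A1, ALDH3B1 and ALDH2 to ALDH3B2, and no 2 neighbours in that order overlapped between libraries. In M5 the top 4 genes kept this order and ALDH3A1 and ALDH3B1 stood below ALDH2, again with no overlap between neighbours. The mean over the 4 libraries reached 1 FPKM, the minimum set for testing, in 9 of the 10 genes. ALDH3A1 and ALDH3B1 passed this minimum through their PBS level alone. ALDH3B2 did not pass it.

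**Figure D1:**
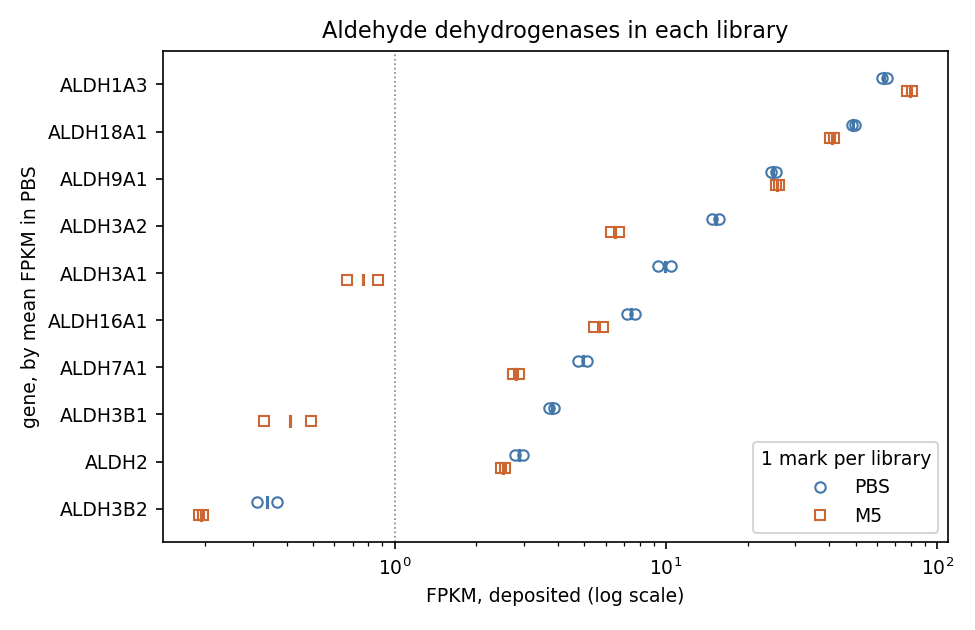
Deposited FPKM of the 10 genes (log axis) in each of 2 PBS (circles) and 2 M5 libraries (squares), with group means as vertical bars and a dotted line at 1 FPKM. ALDH3A1 and ALDH3B1 lie above the line in PBS and below it in M5, while ALDH9A1 overlaps between the groups.

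ALDH3A1 and ALDH3B1 were the 2 genes with the largest differences, 11.6-fold and 8.30-fold lower in M5, and ALDH3A2 was 2.11-fold lower. ALDH7A1 was lower by a smaller factor, ALDH1A3 was higher, and the remaining genes differed by at most 1.18-fold apart from the sparse ALDH3B2. Fold changes come from edgeR's quasi-likelihood fit on the deposited counts with TMM scaling, which sets the bulk of genes near 0 on the log2 scale (median of all tested genes -0.01). Of the 9 tested members, 2 passed an adjusted p under 0.05 as higher in M5 and 5 as lower, with a median log2 fold change of -0.24. Of all 10809 tested genes 28.8% passed as higher and 27.1% as lower, 55.9% in all. Passing as lower by at least 2-fold were 3 of the 9, and 3.14% of all tested genes, by at least 8-fold 2 of the 9, and 0.333%, and as higher by at least 2-fold 0 of the 9, and 6.48%. Because the set was chosen with these values known, nothing is read from these counts. With library totals in place of TMM the median of all genes moved to -0.17, and 1 member passed as higher and 6 as lower, against 20.2% and 41.6% of all genes.

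The 2 ALDH3A genes lie on chromosome 17 with 60385 bases between them, which also hold SLC47A2. ALDH3A1 (ENSG00000108602, GRCh38, 17:19737984-19748943) encodes a cytosolic enzyme that oxidises aromatic and medium-chain aldehydes and is abundant in the cornea. Its level was 9.32 and 10.5 FPKM in PBS and 0.869 and 0.666 FPKM in M5, from 573 and 651 counts against 64 and 51. Both M5 libraries were far below both PBS libraries. The log2 fold change was -3.54 (SE 0.15), and 20 of the 10809 tested genes had a lower value. The M5 libraries differed from each other by 27.0% of their mean and the PBS libraries by 11.7%. With limma on log2(FPKM + 1), a scale that understates changes of low values, the log2 difference was -2.62.

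ALDH3A2 (ENSG00000072210, 17:19648136-19677598) encodes the fatty aldehyde dehydrogenase of the endoplasmic reticulum, which oxidises long-chain aldehydes of ether lipid, phytol and sphingolipid breakdown. Its FPKM was 14.7 and 15.7 in PBS and 6.73 and 6.28 in M5, from 3583, 3873, 1960 and 1900 counts. The groups did not overlap, and the log2 fold change was -1.08 (SE 0.06). ALDH3A1 was also lower in M5 relative to its neighbour. For each 100 counts of ALDH3A2 the PBS libraries held 16.0 and 16.8 counts of ALDH3A1 and the M5 libraries 3.27 and 2.68, a ratio that no scaling between libraries can change. The length behind the deposited FPKM of ALDH3A2, 15331 bases, is 2.37 times the 6457 bases that its exons cover in GENCODE 29, whereas the other 9 members lay between 0.909 and 1.12 times. The same counts divided by the shorter length give 35.0 and 37.4 FPKM in PBS, above ALDH9A1, and 16.0 and 14.9 in M5. Those counts were made with the authors' annotation, and how many of them fall in the shorter exons is not known. Fold changes are not affected by the length.

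ALDH3B1 and ALDH3B2 form a second related group on chromosome 11, 327377 bases apart. ALDH3B1 (ENSG00000006534, 11:68008578-68029282) encodes a lipid-anchored enzyme of cell membranes that acts on lipid-derived aldehydes. Its level was 3.88 and 3.70 FPKM in PBS and 0.493 and 0.329 in M5, from 407 and 393 counts against 62 and 43. The groups were far apart, although the 2 M5 libraries differed by 40.5% of their mean. The log2 fold change was -3.05 (SE 0.18), with 32 tested genes lower still, and it was -1.76 with limma on log2(FPKM + 1). GLTC1, an antisense gene inside ALDH3B1 that shares no exon base with it in GENCODE 29, had 40 and 25 counts in PBS and 9 and 11 in M5. The kit does not mark strand, so reads from the 2 strands cannot be told apart. The same limit holds for the exon bases that ALDH1A3 and ALDH16A1 share with genes on the other strand, given below.

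ALDH3B2 (ENSG00000132746, 11:67662162-67681200) is a close relative of ALDH3B1 and was the least abundant member. It had 21 and 18 counts in PBS and 13 and 14 in M5, or 0.367 and 0.311 against 0.190 and 0.197 FPKM. In a fit without the minimum its log2 fold change was -0.63 (SE 0.41) and it did not pass, in a fit where 22.4% of 27356 genes did. Reads shared by near-identical stretches of the 2 ALDH3B genes could have been split or dropped in the counting, so its small count is uncertain.

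ALDH1A3 (ENSG00000184254, 15:100877714-100916626) encodes a cytosolic retinaldehyde dehydrogenase, which makes retinoic acid. It was the most abundant member, with 62.6 and 65.0 FPKM in PBS and 80.7 and 77.1 in M5, from 5296, 5567, 8181 and 8128 counts. Both M5 libraries were higher, by 1.37-fold (log2 fold change 0.46, SE 0.05, or 0.30 with library totals). Its antisense neighbour ALDH1A3-AS1, which shares 1585 exon bases with it, had 637 counts in each PBS library and 598 and 647 in M5. The 3 tested genes with the most similar levels over the 4 libraries, by Euclidean distance in log2(FPKM + 1), were FURIN, EIF6 and CALM3, with log2 fold changes of 0.49, 0.46 and 0.35. For ALDH3A1, at the other end, they were CACNG4 (-3.25), PTGS1 (-3.08) and OLFML2A (-2.80).

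Among the enzymes of amino acid and carnitine metabolism, ALDH7A1 differed most. ALDH7A1, or antiquitin (ENSG00000164904, 5:126531200-126595418), oxidises the semialdehyde formed in lysine breakdown. Its FPKM was 5.13 and 4.74 in PBS and 2.72 and 2.86 in M5, with no overlap and a log2 fold change of -0.67 (SE 0.07). ALDH18A1 (ENSG00000059573, 10:95605929-95656706) is the mitochondrial synthase of pyrroline-5-carboxylate, the precursor of proline and ornithine. Its FPKM was 48.5 and 49.5 in PBS and 40.1 and 41.6 in M5, which do not overlap, and its TMM-scaled log2 fold change of -0.11 (SE 0.06) did not pass. With library totals that value was -0.27 and passed. It also passed with upper-quartile scaling, with limma, with a minimum of 5 FPKM and without M5 replicate 2.

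ALDH9A1 (ENSG00000143149, 1:165662216-165698863) makes a precursor of carnitine from trimethylaminobutyraldehyde. Its FPKM was 24.4 and 25.4 in PBS and 25.4 and 26.1 in M5, which overlap, while its TMM-scaled CPM of 70.2 and 73.4 in PBS and 81.4 and 83.3 in M5 did not. The log2 fold change of 0.20 (SE 0.06) passed with TMM and was 0.04, not passing, with library totals. Without PBS replicate 1 it did not pass either. ALDH16A1 (ENSG00000161618, 19:49453169-49471048), a family member whose mammalian protein lacks the catalytic cysteine, had 7.69 and 7.17 FPKM in PBS and 5.86 and 5.44 in M5. Its log2 fold change was -0.24 (SE 0.10), and the call was lost with DESeq2, without the minimum, at an adjusted p under 0.01, and without PBS replicate 1, PBS replicate 2 or M5 replicate 2. It shares 152 exon bases with PIH1D1 on the other strand, which had 881 and 950 counts in PBS and 1078 and 1017 in M5.

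ALDH2 (ENSG00000111275, 12:111766887-111817529), the mitochondrial enzyme that clears acetaldehyde formed from ethanol, was close to equal in the 2 groups. PBS libraries held 427 and 463 counts of it, M5 libraries 456 and 491. In FPKM these are 2.77 and 2.97 against 2.47 and 2.56, and the TMM-scaled CPM of 25.8 and 27.7 against 25.6 and 26.4 overlapped. The log2 fold change was -0.04 (SE 0.10). By TMM-scaled CPM, 2 of the 9 tested members lay higher in both M5 libraries, 6 lower and 1 overlapped. The same held for 37.8%, 39.4% and the rest of all tested genes, since 77.2% of them did not overlap. With deposited FPKM, which carry no TMM factor, 1 lay higher and 7 lower, against 26.8% and 53.6% of all tested genes (80.4% without overlap).

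**Figure D2:**
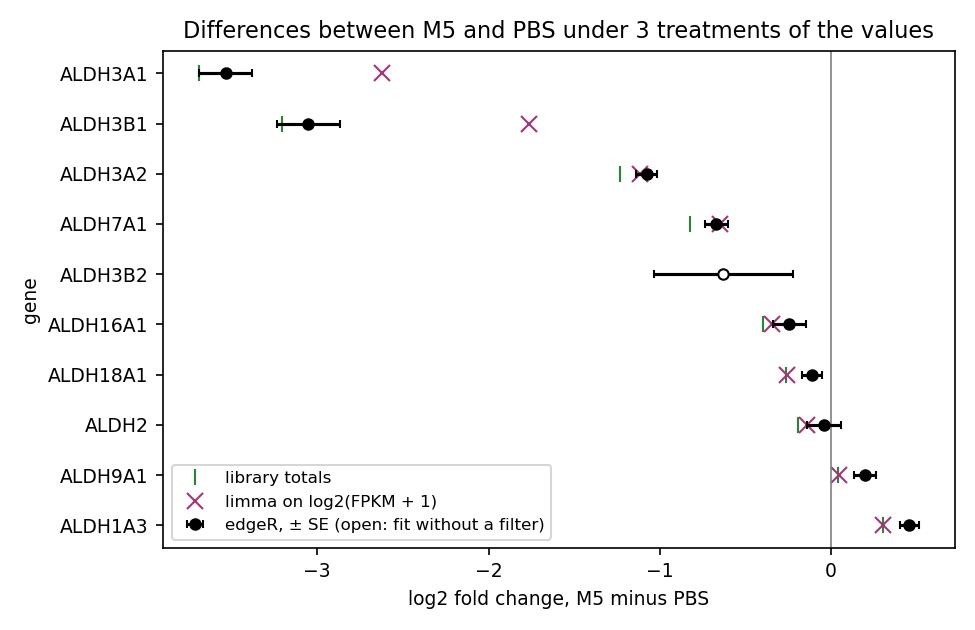
Log2 fold change, M5 minus PBS, of the 10 genes: edgeR with TMM (filled circles, bars are ± SE), edgeR with library totals (ticks) and limma on log2(FPKM + 1) (crosses). The open circle is ALDH3B2 in the fit without a minimum level. ALDH3A1, ALDH3B1 and ALDH3A2 stand at -1.02 or lower in every setting that tested them (ALDH3B1 was not tested with a minimum of 5 FPKM), and ALDH9A1 is at 0.20, or 0.04 with library totals.

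The make-up of the transcripts of these 10 genes, which leave out other members of the family, shifted toward ALDH1A3. Over the 10 genes the summed FPKM was 179 and 185 in PBS and 166 and 163 in M5. ALDH1A3 made up 35.0% ± 0.165 (SD, n = 2) of that sum in PBS and 48.0% ± 1.05 in M5, while ALDH18A1 went from 26.9% ± 0.195 to 24.9% ± 0.896. The 4 ALDH3 genes moved the other way. ALDH3A2 went from 8.36% ± 0.204 to 3.96% ± 0.155, and ALDH3A1 from 5.42% ± 0.323 to 0.467% ± 0.0825. ALDH3B1 went from 2.08% ± 0.115 to 0.250% ± 0.0680 and ALDH3B2 from 0.186% ± 0.0259 to 0.118% ± 0.00414. ALDH9A1 went from 13.7% ± 0.108 to 15.6% ± 0.470, and ALDH16A1, ALDH7A1 and ALDH2 stood at 4.08%, 2.71% and 1.57% in PBS and 3.44%, 1.70% and 1.53% in M5. A share depends on all 10 genes at once and on their lengths. The next values divide the same deposited counts by other lengths, without a new count of reads. With GENCODE 29 exon lengths ALDH3A2 made up 18.5% in PBS and 9.37% in M5, ALDH1A3 30.1% and 44.3%, ALDH18A1 25.0% and 24.7%, and ALDH2 1.47% and 1.53%, the reverse of its direction with deposited FPKM.

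**Figure D3:**
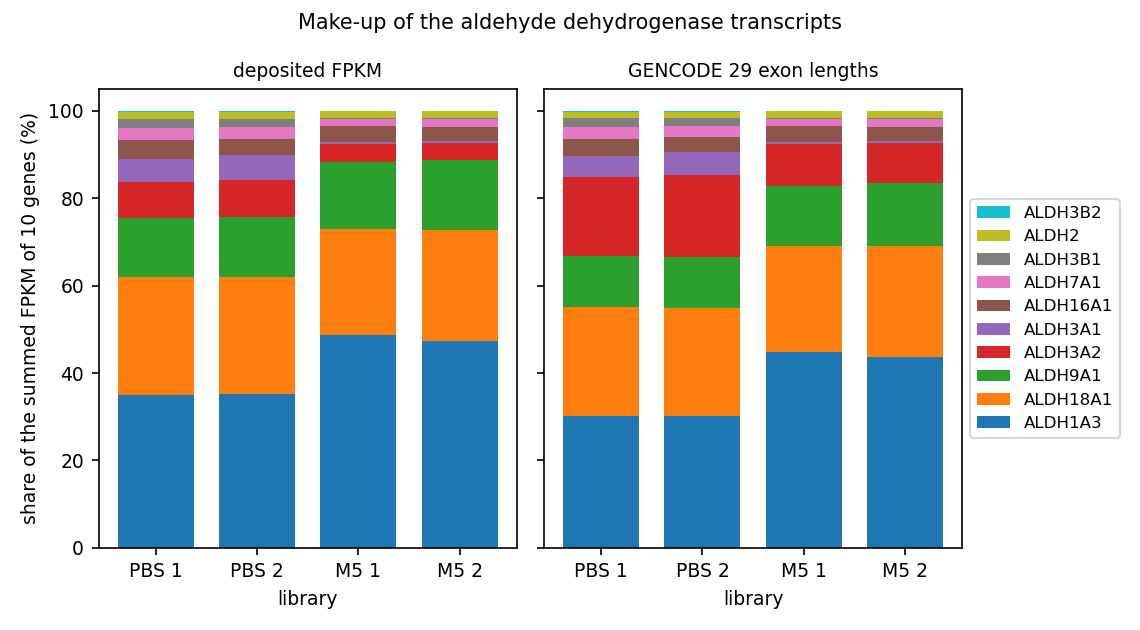
Share of each gene in the summed FPKM of the 10 genes (%), 1 bar per library, with deposited FPKM on the left and GENCODE 29 exon lengths on the right. ALDH1A3 (bottom segment) is larger in both M5 libraries, and ALDH3A2 and ALDH3A1 are smaller, on either length.

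Of the other 9 aldehyde dehydrogenases, 2 reached the minimum for testing. Their mean levels in PBS and M5, 8.49 and 7.32 FPKM for ALDH1B1 and 10.7 and 8.67 FPKM for ALDH4A1, lay above those of ALDH16A1 and ALDH7A1. ALDH1B1, a mitochondrial relative of ALDH2, had a log2 fold change of -0.06 (edgeR adjusted p = 0.651). ALDH4A1, which ends mitochondrial proline breakdown, was at -0.15 (edgeR adjusted p = 0.158), or -0.30 with library totals, where it passed (edgeR adjusted p = 0.00647). In the fit without a minimum, where 9.99% of genes passed as lower and 12.4% as higher, 2 of the 9 passed as lower. ALDH1A1, another cytosolic retinaldehyde dehydrogenase, fell from 26 and 28 counts to 10 and 7 (log2 fold change -1.75, SE 0.42, edgeR adjusted p = 0.011). ALDH6A1, which acts in valine breakdown, fell from 92 and 91 counts to 52 and 47 (log2 fold change -0.98, SE 0.22, edgeR adjusted p = 0.00783). ALDH1A2, a further retinaldehyde dehydrogenase, had between 8 and 14 counts and the folate enzyme ALDH1L2 between 7 and 13, and neither passed. ALDH8A1 had 11 counts in M5 replicate 2 and at most 1 elsewhere, ALDH1L1 at most 2 in any library and ALDH5A1 a single count in all. These 3 are too sparse for a fold change, since 3 counts correspond to between 0.161 and 0.181 CPM, and a difference was not detectable at this depth.

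Genes related to the members were counted in lists, beside 28.8% of all tested genes that rose and 27.1% that fell (20.2% and 41.6% with library totals). Of 22 genes that make, bind or degrade retinoic acid 10 were tested, 4 rose and 5 fell. CRABP2, which carries retinoic acid in the cytosol, rose 2.66-fold to 37.3 ± 3.95 CPM (SD, n = 2, TMM-scaled counts of tested genes), a log2 fold change of 1.41 (edgeR adjusted p = 2.84e-09). CYP26B1, which degrades retinoic acid, rose by 0.89 (edgeR adjusted p = 1.51e-08). RARG, the main retinoic acid receptor of epidermis, fell from 124 ± 4.32 to 49.3 ± 1.17 CPM, 2.51-fold (edgeR adjusted p = 1.97e-12), and DHRS3, a retinaldehyde reductase, fell by 0.61 on the log2 scale (edgeR adjusted p = 1.93e-06). With library totals 2 rose and 5 fell. The list median was -0.04, against -0.01 for all tested genes. Without a minimum 5 rose and 5 fell. CYP26A1, a relative of CYP26B1, was among those that fell in that fit, from 33 and 18 counts in PBS to 5 and 0 in M5. Its log2 fold change was -3.38 (SE 0.79, edgeR adjusted p = 0.00879).

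ALDH3A1 is also known as a target of the aryl hydrocarbon receptor, a sensor of aromatic compounds. Of the 9 genes listed with that receptor 6 were tested, 1 rose and 3 fell, with TMM as with library totals, where 27.1% and 41.6% of all tested genes fell. The list median was -0.32, against -0.01 for all tested genes. CYP1A1 and CYP1B1, oxidases that the receptor switches on, fell 2.48-fold (edgeR adjusted p = 2.89e-05) and 2.07-fold (edgeR adjusted p = 3.73e-09). NQO1, a quinone reductase shared with the NRF2 list, fell 1.61-fold (edgeR adjusted p = 8.27e-09). TIPARP, on the same list, went the other way and rose 2.13-fold (edgeR adjusted p = 1.43e-11). Neither AHR itself (0.08, edgeR adjusted p = 0.354) nor its partner ARNT (0.05, edgeR adjusted p = 0.612) passed. Whether the activity of the receptor differed was not tested. Of 12 NRF2 pathway genes, all tested, 3 rose and 4 fell, or 3 and 6 with library totals. Besides NQO1, the glutathione synthesis gene GCLC was 2.35-fold lower, whereas TXNRD1, a thioredoxin reductase, was higher by 0.51 and HMOX1, heme oxygenase, by 2.12 on the log2 scale.

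Of 12 aldehyde and ketone reductases, which dispose of carbonyls by reduction, 8 were tested, 1 rose and 5 fell, with a median of -0.36. The counts were the same with library totals, and 27.1% of all tested genes fell with TMM and 41.6% with library totals. AKR1C2 fell 1.61-fold (edgeR adjusted p = 6.72e-08), AKR1A1 1.37-fold (edgeR adjusted p = 1.42e-05) and AKR7A2 1.30-fold (edgeR adjusted p = 0.000949), while AKR1B1, aldose reductase, rose 1.64-fold (edgeR adjusted p = 9.46e-09). AKR1C2 has near-identical relatives, so its reads may have been split among them. Of 8 alcohol dehydrogenases listed, ADH5, the formaldehyde-clearing enzyme, was tested, with a log2 fold change at 0.17 (edgeR adjusted p = 0.0273) that was 0.02 with library totals (edgeR adjusted p = 0.853). Over its alternatives the adjusted p of ADH5 ran up to 0.853 and the call was lost in 10 of 15.

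Genes of the pathways around ALDH3A2, ALDH18A1 and ALDH7A1 were looked at beside them. Among 6 tested genes of long-chain aldehyde supply, 2 rose and 1 fell, with a median of 0.23, beside 28.8% and 27.1% of all tested genes. SPHK1, which phosphorylates sphingosine, rose from 22.5 ± 0.430 to 107 ± 2.96 CPM, 4.77-fold (edgeR adjusted p = 4.60e-15). SGPL1, the lyase that releases hexadecenal, a substrate of ALDH3A2, from that product, rose 1.46-fold (edgeR adjusted p = 9.85e-07). SPHK2 was at -0.36 (edgeR adjusted p = 0.0441), a call lost in 8 of the 14 alternatives that tested it, and with library totals 2 of the list rose and 2 fell. Among 6 tested proline and ornithine genes 1 rose and 2 fell, or 1 and 4 with library totals. ARG2, the mitochondrial arginase, rose from 2.31 ± 0.279 to 9.86 ± 1.09 CPM (4.25-fold, edgeR adjusted p = 2.03e-07), GLUD1, glutamate dehydrogenase, fell 1.90-fold (edgeR adjusted p = 5.39e-11) and PYCR1, which reduces pyrroline-5-carboxylate to proline, fell 1.38-fold (edgeR adjusted p = 0.00011). Among 4 tested lysine, choline and carnitine genes 2 fell and 0 rose. These were the lysine breakdown genes DHTKD1 (1.63-fold, edgeR adjusted p = 1.78e-08) and AADAT (1.58-fold, edgeR adjusted p = 0.00398). With library totals 3 of the 4 fell.

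**Figure D4:**
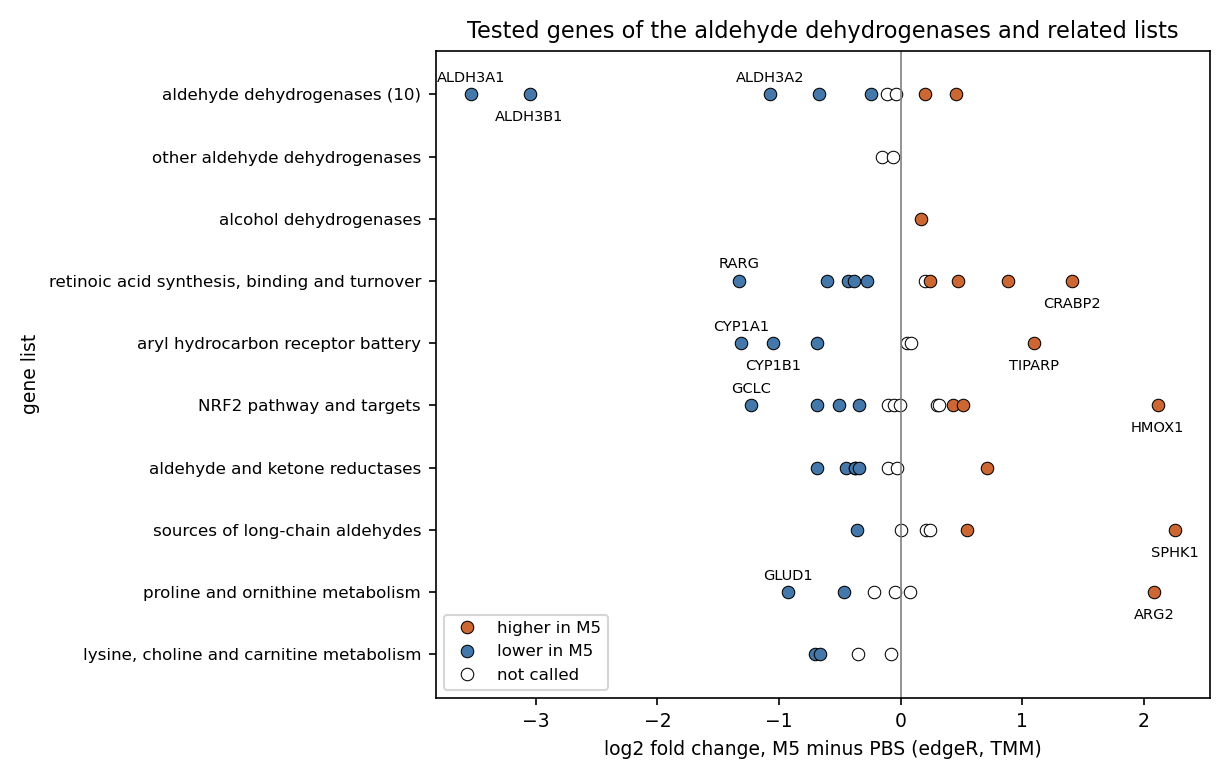
Log2 fold change, M5 minus PBS, of the tested genes in each list: 1 point per gene, orange where called higher, blue where called lower and white where not called (edgeR with TMM, adjusted p under 0.05). The top row holds the 9 tested members, chosen with these values known, with ALDH3A1 and ALDH3B1 at -3.54 and -3.05.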

How the data were processed

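Per the labels, polyadenylated RNA of HaCaT was sequenced in 2 PBS and 2 M5 libraries. Groups and replicate numbers come from the sample titles. Per the file headers, the authors deposited a raw count and an FPKM for each of 27356 genes. HISAT2, HTSeq 0.13.5 and GRCh38 stand in the submitters' processing notes without a stated role. Which annotation release was used, and how strand and multiply aligned reads were handled, is not given in the sources used here. Dividing each deposited count by its FPKM gave the same gene length in all 4 files.

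The counts were tested with edgeR 4.0.16 (glmQLFit, glmQLFTest, TMM) in R 4.3.3, two-sided, on the 10809 genes whose mean FPKM over the 4 libraries reached 1, with Benjamini-Hochberg adjustment over all of them and a threshold of 0.05. Standard errors are the log2 fold change over the square root of F. CPM were computed over tested genes with TMM-scaled library sizes. DESeq2 1.42.0 and limma 3.58.1 on log2(FPKM + 1) or log2(FPKM + 0.1) were alternatives. The fit was also run on simulated data, in which far fewer genes changed than passed here. It recovered 22 of 50 genes changed 1.25-fold and 49 of 50 changed 4-fold. Of 168 calls, 12 were false. Replicates were distinct libraries, spread more widely than sampling (median chi-square per gene 0.987 in PBS and 1.49 in M5, where sampling gives 0.455).

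The members and lists were chosen with earlier results of these data known. Named are all members, the other aldehyde dehydrogenases, up to 4 called genes per list with the largest change, and the 3 genes nearest to 2 members. Genes named outside this rule, among them AHR, ARNT, CYP26A1, GLTC1 and the marker genes, were chosen after their values were seen. Positions are from GENCODE 29, which holds 93.2% of the identifiers.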

Additional observations from a re-analysis of the deposited data

How the results depend on the processing

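The log2 fold changes of ALDH1A3, ALDH3A1, ALDH3A2, ALDH3B1 and ALDH7A1 kept their direction and their call in every alternative that tested them. Over these alternatives they ran from 0.30 to 0.49, -3.74 to -2.62, -1.23 to -1.02, -3.37 to -1.76 and -0.82 to -0.61. Every alternative draws on the same libraries whose values were known when the members were chosen. The alternatives therefore show only how far the values depend on the processing. ALDH3A1 and ALDH3B1 reached the minimum for testing through their PBS level alone. The number of members passing as higher was 2, and it was 1 with library totals, upper-quartile scaling, limma with either pseudocount, an adjusted p under 0.01 and, among the fits without 1 library (range 1 to 2), without PBS replicate 1. In each of these ALDH9A1 was the one lost. ALDH2 did not pass in any, with values from -0.19 to 0.01. Over all genes, 3114 passed as higher and 2929 as lower. With limma 2010 (pseudocount 1) and 2005 (0.1) passed as higher, and with library totals 4492 as lower. The share of calls that were higher was 51.5% with TMM, 32.7% with library totals and 38.0% with upper-quartile scaling. A fit with the replicate number as a block called 3134 genes higher and 2959 lower, and the same 2 and 5 members. The replicate differences of the 2 groups had a correlation of -0.017 across genes. Each group gives only a single such difference, so this cannot decide whether equal numbers mark libraries that belong together. ALDH1B1, at -0.06, changed sign without PBS replicate 1 (0.052) and without M5 replicate 2 (0.009), within a range of -0.169 to 0.052 over fits without 1 library, none of which passed. Shares of the summed FPKM with GENCODE 29 exon lengths, chosen after seeing the data, were 30.1% and 44.3% for ALDH1A3 in PBS and M5, 18.5% and 9.37% for ALDH3A2, and 11.6% and 14.2% for ALDH9A1. ALDH18A1 was then at 25.0% and 24.7%, a smaller difference than with deposited FPKM, and ALDH2 at 1.47% and 1.53%, which turns the direction of its shares. ALDH3A1 was at 5.00% and 0.460%, ALDH3B1 at 1.93% and 0.249%, ALDH3B2 at 0.193% and 0.131% and ALDH16A1 at 3.75% and 3.39%. Among the members, the 2 lengths differ most for ALDH3A2, and reads were not counted anew over the GENCODE 29 exons. With 2 libraries a group the spread of each gene rests on 2 values, and the sparse ALDH3B2 had an SE of 0.41.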

Other observations

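Genes beside the 3 members that were at least 2-fold lower were read from the same fit, a choice made after their values were seen. Within 200 kb of ALDH3A1 or ALDH3A2, 2 other genes were tested and both passed as higher: ULK2, an autophagy kinase, at a log2 fold change of 0.39 (edgeR adjusted p = 0.00348) and AKAP10, a kinase anchor within that distance of ALDH3A1 alone, at 0.22 (edgeR adjusted p = 0.022). Within 200 kb of ALDH3B1, 7 other genes were tested, of which 4 passed as lower and 2 as higher. The antisense gene GLTC1, inside ALDH3B1, was at -1.82 (SE 0.44, edgeR adjusted p = 0.00179). UNC93B1, a chaperone of Toll-like receptors whose gene lies 3595 bases from that of ALDH3B1, was at -0.36. NDUFS8, a respiratory complex I subunit whose gene lies 1334 bases away on the other side, was at -0.33. CHKA, choline kinase, was at -0.54, TCIRG1 at 0.27 and KMT5B at 0.35. Of all tested genes, 27.1% passed as lower and 28.8% as higher.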
